A study of Mus musculus with 16 samples.

Results

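The VEGF ligands and receptors described here are 7 genes of the 37991 gene entries in each deposited table: the ligand genes Vegfa, Vegfb, Vegfc and Pgf and the receptor genes Flt1, Kdr and Flt4. They were chosen by gene symbol, as rows of the liver and lung tables of individual replicates, and each symbol matched 1 row in each table. Their identifiers in the files are ENSMUSG00000023951 (Vegfa), ENSMUSG00000024962 (Vegfb), ENSMUSG00000031520 (Vegfc), ENSMUSG00000004791 (Pgf), ENSMUSG00000029648 (Flt1), ENSMUSG00000062960 (Kdr) and ENSMUSG00000020357 (Flt4). Endothelial cells were sorted by CD31 from the liver and the lung of adult mice and their RNA was sequenced. CD31 is an adhesion molecule on the surface of endothelial cells. The GOF mice were Rosa-Bcat-GOF/+; VE-Cadherin-CreERT2, in which an inducible Cre recombinase driven by the endothelial VE-cadherin promoter turns on activated beta-catenin, the protein that carries canonical Wnt signals to target genes. Control mice were Rosa-Bcat-GOF/+ and carried the activatable allele without the Cre, so effects of the Cre transgene and of activated beta-catenin cannot be told apart. Lung GOF, lung control, liver GOF and liver control had 4 libraries each, 16 in all, lettered B, D, E and F in lung and B, E, F and G in liver.

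VEGF-A acts on endothelial cells mainly through VEGFR2, the receptor tyrosine kinase encoded by Kdr. VEGFR1, encoded by Flt1, binds VEGF-A, VEGF-B and placental growth factor (Pgf) and holds VEGF-A away from VEGFR2. VEGFR3, encoded by Flt4, binds VEGF-C and VEGF-D (listed under its older symbol Figf), and in adults it is best known from lymphatic vessels, though fenestrated and sinusoidal endothelium carries it too. In lung, VEGF-A made by alveolar epithelium sustains the capillaries, and in liver, VEGF-A made by hepatocytes acts on the sinusoidal endothelium.

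Total reads per library ran from 22815467 to 37127150, with 15533 to 17897 genes detected. All 15 pan-endothelial markers averaged above 1 CPM (reads of a gene scaled to a common library size) in every group, and their summed level lay between 13314 and 19564 CPM in every library. Markers of other cells were present as well, and their sums are given beside the members they move with. Ctnnb1, the beta-catenin gene, averaged 674 ± 71.3 CPM in lung GOF and 687 ± 51.4 CPM in lung control libraries, and 745 ± 68.3 CPM in liver GOF and 799 ± 81.6 CPM in liver control libraries (SD, n = 4 each), so its reads do not tell the genotypes apart. CPM values here are scaled by the trimmed mean of M values (TMM) over all 16 libraries, and a letter that occurs in both genotypes of a tissue was read as a pair.

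The sequence just upstream of the annotated start is shown for 3 members that set the contrast of the data: Vegfa, the member that differed most between the tissues, and Flt1 and Kdr, receptor genes whose level differed between the tissues by less than the spread of the libraries. Bases are from RefSeq on GRCm38.p6, read 5′ to 3′ on the gene's own strand, and capitals mark GGGCGG or its reverse complement CCGCCC, the core of the binding site of Sp1-type factors. The window of Vegfa is chr17:46032378-46032627 (minus strand), that of Flt1 is chr5:147726012-147726261 (minus strand), and that of Kdr is chr5:75978459-75978705 (minus strand).
Vegfa: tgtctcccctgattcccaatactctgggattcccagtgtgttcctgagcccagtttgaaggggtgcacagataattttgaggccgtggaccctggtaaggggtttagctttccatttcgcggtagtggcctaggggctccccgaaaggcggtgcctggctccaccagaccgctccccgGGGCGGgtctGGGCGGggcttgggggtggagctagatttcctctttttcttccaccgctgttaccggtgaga
Flt1: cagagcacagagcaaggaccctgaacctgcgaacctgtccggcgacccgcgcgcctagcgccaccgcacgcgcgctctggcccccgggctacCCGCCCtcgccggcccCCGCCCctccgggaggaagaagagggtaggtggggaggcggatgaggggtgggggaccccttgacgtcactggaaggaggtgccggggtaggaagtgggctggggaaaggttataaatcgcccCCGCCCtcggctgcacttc
Kdr: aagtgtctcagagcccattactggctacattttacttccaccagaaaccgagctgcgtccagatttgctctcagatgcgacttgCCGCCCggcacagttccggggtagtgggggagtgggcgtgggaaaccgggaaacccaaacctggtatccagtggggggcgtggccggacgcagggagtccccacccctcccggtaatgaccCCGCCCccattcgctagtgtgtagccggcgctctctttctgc
None of these 3 windows overlaps an annotated exon. GGGCGG occurred in either orientation in the 250 bases upstream of all 7 members (2 matches for Vegfa, Vegfc, Pgf and Kdr, 3 for Flt1 and Flt4, 4 for Vegfb), against 33.0% of 27025 promoters of the same length. CTTTGA, a core of the site bound by the TCF/LEF partners of beta-catenin, was searched on both strands and is not among these letters in any of the 7 windows; it occurs in 14.1% of the 27025. CCGGAA, an ETS-type core, occurred 1 time, for Kdr, against 12.3% of promoters. GCGTG, one form of the core of the hypoxia response element, occurred for Vegfb, Pgf, Flt1 and Kdr (28.3% of promoters), and the form ACGTG for none of the 7 (16.5%). These are matches of letters, not sites, and the windows of Pgf and Flt4 lie inside annotated exons.

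Among the ligands, Vegfa was the most abundant per kilobase in lung and Vegfc in liver. To compare genes, CPM was divided by the length of all annotated exons. In lung, Vegfa averaged 149.5 ± 26.1 CPM per kb in GOF and 151 ± 22.9 in control libraries, ahead of Vegfc with 53.1 ± 7.26 in GOF and 67.4 ± 13.4 in control libraries (SD, n = 4 each). In liver the order turned round: Vegfc averaged 46.6 ± 15.9 CPM per kb in GOF and 42.0 ± 15.7 in control libraries, and Vegfa 13.3 ± 4.96 in GOF and 13.2 ± 5.20 in control libraries. Vegfb and Pgf were low in every group, between 6.26 and 11.2 CPM per kb on average for Vegfb and between 0.910 and 4.12 for Pgf. Kdr led the receptors everywhere, with means of 176 to 209.7 CPM per kb over the 4 groups. In lung, Flt1 came next (56.9 ± 7.92 in GOF, 69.5 ± 2.58 in control) and Flt4 last (27.7 ± 3.47 in GOF, 30.6 ± 3.09 in control). In liver, Flt4 (88.7 ± 38.1 in GOF, 76.4 ± 23.9 in control) and Flt1 (68.6 ± 12.1 in GOF, 62.8 ± 8.53 in control) had overlapping ranges. In the same libraries Nrp1, the co-receptor that joins VEGFR2, averaged 125 to 149.6 CPM per kb over the 4 groups.

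**Figure D1:**
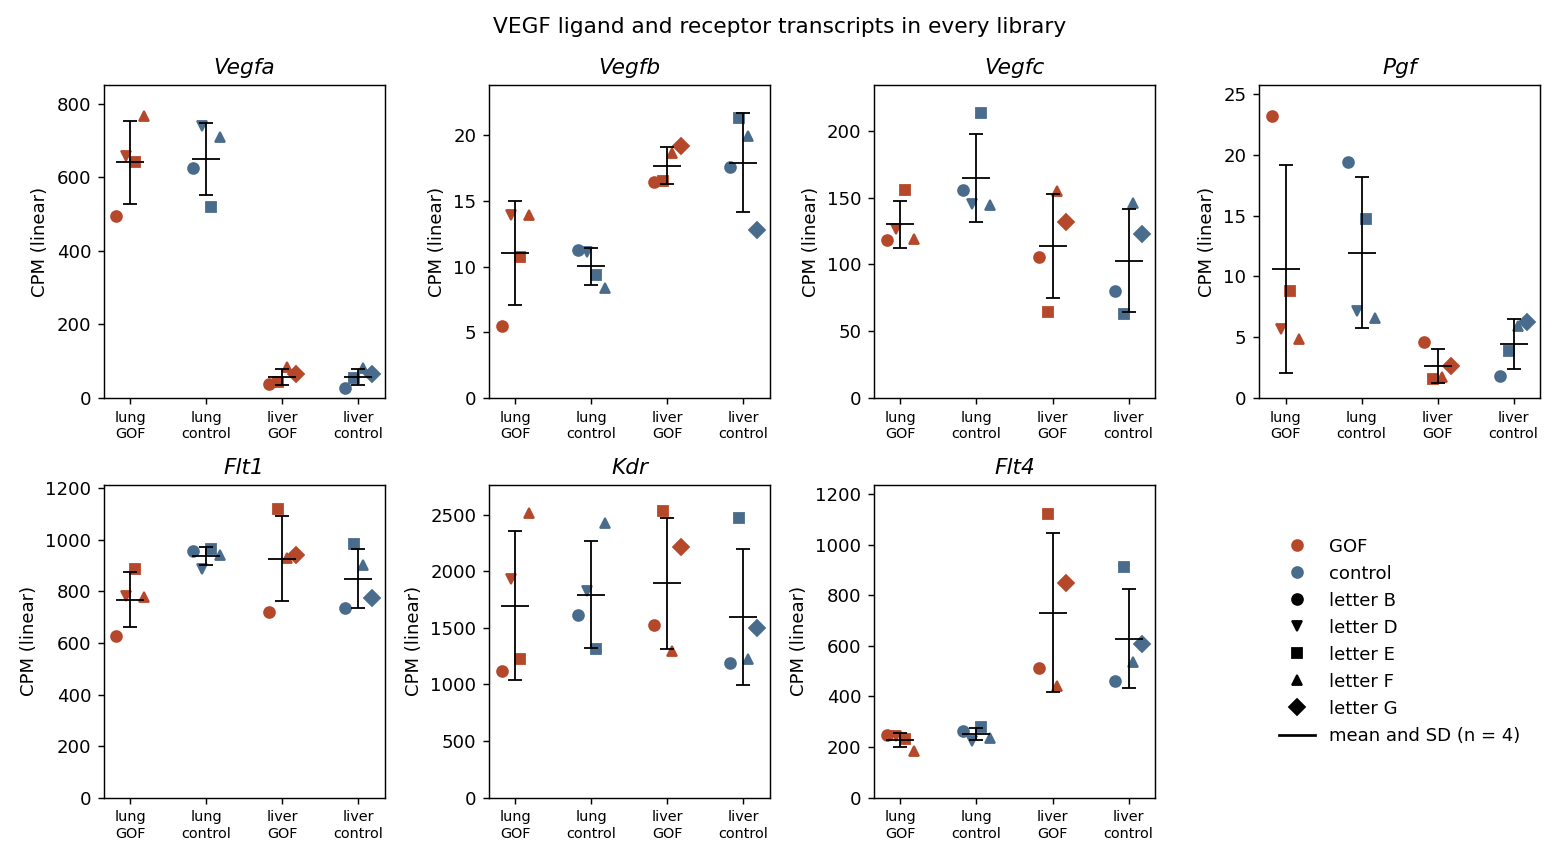
Level of the 7 members in each library, in CPM on linear axes from 0; points are libraries (colour: genotype; shape: letter), and bars give the mean and SD of 4 libraries. Lung libraries lie above all liver libraries for Vegfa and below all of them for Flt4, while GOF and control overlap within a tissue for every member except Flt1 in lung.

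Within each tissue GOF libraries were compared with control libraries, which lack both the Cre and activated beta-catenin. Of the members, 0 of 7 passed the threshold in lung and 0 of 7 in liver (edgeR's quasi-likelihood test, Benjamini-Hochberg adjusted p under 0.05 over all genes tested). In lung 0% of 15641 genes passed, and in liver 0.0321% of 15555. In the paired fit, where the letter is a block, 0 of 7 members passed again in either tissue, while 0.0192% of genes passed in lung and 2.58% in liver. The number of members with an unadjusted p under 0.05 was 0 in both tissues without the block, 2 in lung and 1 in liver with it, and 1 in lung and 0 in liver with DESeq2. Of all genes tested, 341 in lung and 1010 in liver had such a p without the block. With the block 954 had it in lung and 2386 in liver, and with DESeq2 437 in lung and 1153 in liver. The members' median log2 fold change of GOF over control was -0.13 in lung, where the median over all genes tested was 0.006, and 0.13 in liver, where it was -0.002. The summed markers of most other cell types averaged lower in liver GOF than in liver control libraries beside these values. Those of alveolar type 2, lymphatic endothelial, lymphocyte, and neutrophil and monocyte lists averaged higher. Ranges follow for some of the lower lists. Smooth muscle and pericyte markers summed to 44.7 to 76.5 CPM in liver GOF and 67.6 to 223 CPM in liver control libraries. Hepatocyte markers summed to 819 to 1924 CPM in liver GOF and 885 to 4099 CPM in liver control libraries, and fibroblast markers to 88.7 to 584 CPM in liver GOF and 315 to 1208 CPM in liver control libraries. Mesothelial markers summed to 296 to 421 CPM in liver GOF and 434 to 594 CPM in liver control libraries, with no overlap, and cholangiocyte markers to 14.2 to 74.1 CPM in liver GOF and 21.9 to 156 CPM in liver control libraries. Their part in the liver values was not tested. In lung, sums of most other cell types averaged higher in GOF than in control libraries. Airway, alveolar type 1, lymphatic endothelial, and platelet and megakaryocyte sums averaged lower. Lymphocyte markers summed to 32.7 to 46.8 CPM in lung GOF and 13.4 to 29.7 CPM in lung control libraries, with no overlap. Fibroblast markers summed to 1609 to 4631 CPM in lung GOF and 864 to 2391 CPM in lung control libraries. The part of these cells in the lung values was not tested. Fold changes below are GOF over control, as log2, with SE.

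Vegfa, the ligand of VEGFR1 and VEGFR2, had 494, 659, 643 and 766 CPM in lung GOF libraries B, D, E and F, against 627, 739.7, 521 and 708 CPM in lung controls. In liver it had 36.9, 43.2, 83.4 and 65.2 CPM in GOF libraries B, E, F and G, against 28.1, 53.2, 81.2 and 64.2 CPM in controls. The liver values run together letter by letter, with B lowest and F highest in both genotypes. The paired log2 fold change was -0.01 ± 0.11 in lung (95% interval -0.26 to 0.23) and 0.04 ± 0.12 in liver (-0.23 to 0.31). These intervals leave out a change of Vegfa of more than about 0.31 on the log2 scale in either direction, where the unpaired fit in liver left room for -0.71 to 0.73.

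Vegfc, the main ligand of VEGFR3, was the ligand whose pairs went one way. It had 118, 127, 156 and 119 CPM in lung GOF libraries B, D, E and F, against 156, 146, 214 and 145 CPM in the lung controls of those letters. All 4 lung GOF libraries were thus below their own partner, though the groups overlap. In liver it had 105, 64.2, 155 and 132 CPM in GOF libraries B, E, F and G, against 79.8, 62.8, 146 and 123 CPM in controls, each GOF library above its partner. How many of all genes had all 4 pairs going one way was not counted. In lung the log2 fold change was -0.34 ± 0.18 unpaired (adjusted p = 0.9998) and -0.33 ± 0.11 in pairs (95% interval -0.57 to -0.08, adjusted p = 0.712). In liver it was 0.15 ± 0.31 unpaired and 0.15 ± 0.095 in pairs (adjusted p = 0.501).

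Vegfb, a ligand of VEGFR1 known from heart and fat tissue, had 5.52, 14.0, 10.7 and 13.9 CPM in lung GOF libraries, against 11.3, 11.1, 9.37 and 8.38 CPM in lung controls. Library B was below its partner and the other 3 above theirs. Liver GOF libraries had 16.4, 16.5, 18.6 and 19.2 CPM, against 17.6, 21.3, 19.96 and 12.8 CPM in liver controls. The paired log2 fold change was 0.08 ± 0.32 in lung and -0.0004 ± 0.19 in liver.

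Pgf, placental growth factor, was the least abundant member and the most variable. It had 4.62, 1.57, 1.73 and 2.64 CPM in liver GOF libraries B, E, F and G, against 1.83, 3.89, 5.91 and 6.25 CPM in liver controls. Libraries E, F and G were lower than their partners and B was higher. The log2 fold change in liver was -0.76 ± 0.52 unpaired and -0.81 ± 0.60 in pairs (adjusted p = 0.593), with a paired interval of -2.12 to 0.50. In lung it had 23.2, 5.64, 8.82 and 4.85 CPM in GOF libraries B, D, E and F, against 19.4, 7.12, 14.7 and 6.597 CPM in controls, and the paired log2 fold change was -0.30 ± 0.26. Library B was the highest lung library of both genotypes.

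Flt1, the decoy-like receptor VEGFR1, was the 1 member whose genotypes did not overlap, and this held in lung only. It had 626, 781, 885 and 779 CPM in lung GOF libraries B, D, E and F, against 958, 888, 966 and 939.6 CPM in lung controls. Every lung GOF library was below every lung control, yet the highest GOF value (885) and the lowest control value (888) nearly met. How many of all genes separate the genotypes in this way was not counted. The log2 fold change was -0.28 ± 0.15 unpaired (adjusted p = 0.9998) and -0.29 ± 0.10 in pairs (95% interval -0.52 to -0.06, adjusted p = 0.744). In the authors' deposited table the unadjusted p-value for Flt1 in lung was 0.0478 and the adjusted one 1. Pecam1, which encodes the CD31 used for sorting, moved beside it: it averaged 2554 ± 357 CPM in lung GOF and 3026 ± 276 CPM in lung control libraries (SD, n = 4 each), a paired log2 fold change of -0.24 ± 0.086 (adjusted p = 0.744). Its part in the Flt1 values was not tested. The lung pairs B, D, E and F had Flt1 log2 ratios of -0.61, -0.19, -0.13 and -0.27, so B had the largest drop. In pair B, Kdr (-0.53) and Nrp1 (-0.60) were lower in GOF too, while Flt4 (-0.10) and Nrp2 (0.01) differed little. Lung GOF B also had the lowest pan-endothelial sum (13314 CPM) and the highest fibroblast sum (4631 CPM) of all libraries. The part of this make-up in the Flt1 values was not tested. In liver, Flt1 had 719, 1119.9, 929 and 939 CPM in GOF libraries B, E, F and G, against 736, 985, 901 and 772 CPM in controls, with a paired log2 fold change of 0.12 ± 0.084.

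Kdr, the gene of the main signalling receptor VEGFR2, was the receptor among the members whose liver pairs went one way. In liver it had 1527, 2530.0, 1298 and 2218 CPM in GOF libraries B, E, F and G, against 1185, 2468, 1222 and 1497 CPM in controls. All 4 liver GOF libraries were above their partner, from 0.04 (E) to 0.57 (G) on the log2 scale. The co-receptor genes Nrp1 and Nrp2 were also higher in all 4 liver pairs, and how many of all genes were was not counted. The liver log2 fold change of Kdr was 0.25 ± 0.29 unpaired and 0.26 ± 0.096 in pairs (adjusted p = 0.204), with a paired interval of 0.05 to 0.47. In lung Kdr had 1119, 1935, 1222 and 2512 CPM in GOF libraries B, D, E and F, against 1617, 1823, 1311 and 2425 CPM in controls. D and F were the high letters of both genotypes, and the paired log2 fold change was -0.12 ± 0.11. Cdh5, the VE-cadherin gene, had a paired log2 fold change of 0.21 ± 0.074 in liver (adjusted p = 0.186).

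Flt4, the gene of the VEGF-C receptor VEGFR3, ranked the liver libraries of each genotype in the same order as Kdr did. It had 514, 1119.7, 441 and 847 CPM in liver GOF libraries B, E, F and G, against 462, 910.1, 536 and 606 CPM in liver controls, so that F was below its partner and the others above. In lung it had 247, 246, 233 and 186 CPM in GOF libraries B, D, E and F, against 264, 225, 281 and 236 CPM in controls. The paired log2 fold change was -0.14 ± 0.12 in lung and 0.16 ± 0.11 in liver.

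**Figure D2:**
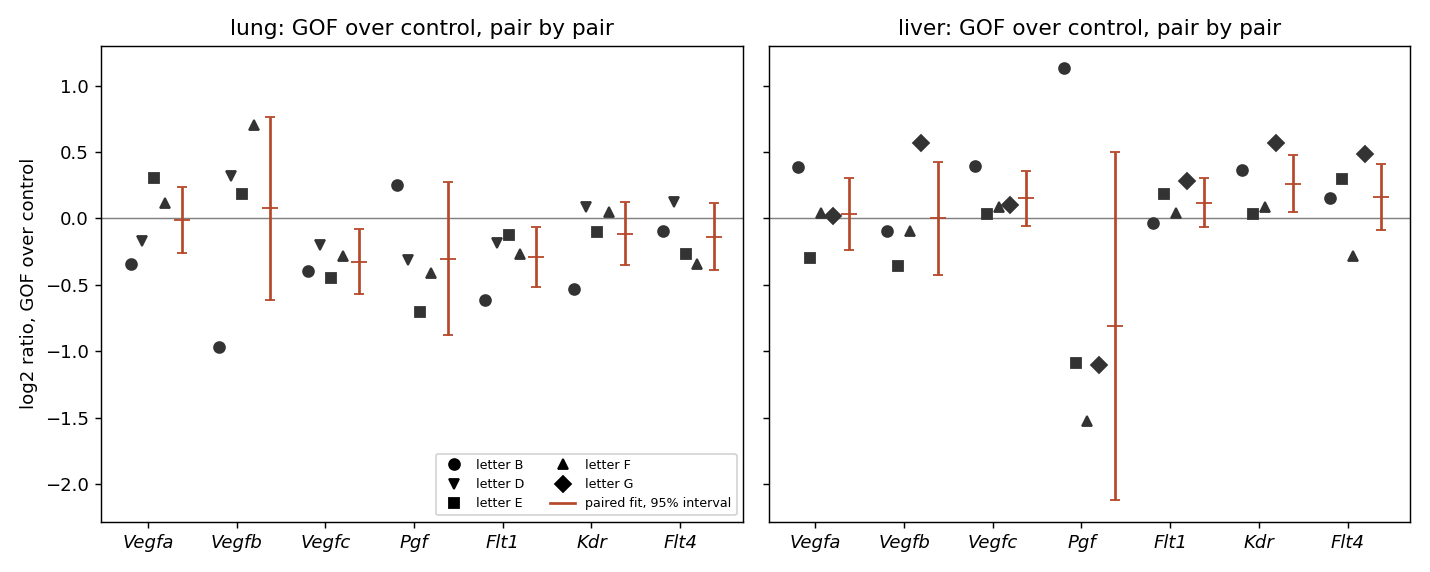
Log2 ratio of GOF over control for each same-letter pair (black points, shape by letter) and the paired edgeR estimate with its 95% interval (red), for lung (left) and liver (right). All 4 lung pairs of Vegfc and Flt1 lie below 0 and all 4 liver pairs of Vegfc and Kdr lie above 0, while Pgf in liver spreads from -1.52 to 1.14.

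The difference between the genotype effects of lung and liver was tested as an interaction over all 16 libraries, and 0 of 7 members passed with or without the letter block, where 0.0057% of 17536 genes passed without it and 0.49% with it. The number of members with an unadjusted p under 0.05 was 0 without the block, 3 with it and 0 with DESeq2. Of the 17536 genes, 1005 had such a p without the block, 1877 with it and 1002 with DESeq2. For Vegfc the effect in lung minus that in liver was -0.48 ± 0.37 on the log2 scale unpaired (adjusted p = 0.998) and -0.48 ± 0.14 in pairs (95% interval -0.77 to -0.19, adjusted p = 0.173). For Flt1 it was -0.41 ± 0.22 unpaired and -0.41 ± 0.14 in pairs (95% interval -0.70 to -0.12, adjusted p = 0.261). For Kdr it was -0.38 ± 0.16 in pairs (adjusted p = 0.410). The other 4 members had paired differences between -0.30 for Flt4 and 0.50 for Pgf, each with an interval that spans 0.

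Some members were high in libraries of the same letter. In liver, E had the highest mean of Flt1, Kdr and Flt4, and the letter means spanned 0.99 for Kdr and 1.052 for Flt4 on the log2 scale. Vegfa and Vegfc were highest in liver F, with letter ranges of 1.34 and 1.24. In lung, Kdr and Vegfa were highest in F and Pgf in B, with letter ranges of 0.96, 0.40 and 1.82. Markers of macrophages and Kupffer cells moved with liver Kdr: their sums were 199, 1329, 480.0 and 806 CPM in GOF libraries B, E, F and G, and 227, 1539, 670.4 and 760.2 CPM in controls. Most of that sum was Mrc1, a mannose receptor that sinusoidal endothelium also carries (636 ± 471 CPM in liver GOF and 714 ± 537 CPM in liver control, SD, n = 4 each), while Clec4f, which defines Kupffer cells, averaged 12.9 ± 8.85 CPM in liver GOF and 14.7 ± 13.7 CPM in liver control. Their part in the Kdr and Flt4 values was not tested.

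Reads of one receptor were also set against reads of another in the same library, with no correction for length, so that these ratios compare libraries and not genes. Flt4 had 0.153 ± 0.066 reads per Kdr read in lung GOF and 0.150 ± 0.051 in lung control libraries, and 0.375 ± 0.049 in liver GOF and 0.401 ± 0.029 in liver control libraries (SD, n = 4 each). The lung values (0.0741 to 0.221) and the liver values (0.337 to 0.443) do not overlap. Flt1 had 0.499 ± 0.182 reads per Kdr read in lung GOF and 0.551 ± 0.149 in lung control libraries, and 0.513 ± 0.136 in liver GOF and 0.568 ± 0.144 in liver control libraries, with overlapping ranges. Within lung, the Flt4 ratio was lowest in the F libraries, which had the most Kdr.

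The tissue comparison asks how lung endothelium differs from liver endothelium in each genotype. Lung exceeded liver strongly for Vegfa and fell below it for Flt4, in GOF and in control libraries alike. Between lung GOF and liver GOF 3 of 7 members passed the threshold, where 25.4% of 15905 genes passed, and between lung control and liver control 3 of 7, where 24.9% of 15806 passed. With so many genes called, these counts do not set the members apart from the genes at large. In both genotypes the ranges of lung and liver libraries did not overlap for Vegfa, Vegfb, Pgf and Flt4, nor for Figf and Nrp2. How many of all genes lack overlap between the tissues was not counted, so this does not set the members apart either. The differences below are lung over liver, as log2 with SE, by edgeR without a block. Same-letter libraries of lung and liver correlated weakly, and whether a letter marks a mouse shared by both tissues is not known.

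Vegfa was 3.49 ± 0.28 higher in lung GOF than in liver GOF libraries (an 11.2-fold difference, adjusted p = 1.12e-05), and 3.51 ± 0.30 higher in lung control than in liver control libraries (11.4-fold, adjusted p = 1.92e-05). The lowest lung library (494 CPM) stood far above the highest liver library (83.4 CPM). Alveolar type 1 epithelial markers moved with it. All 8 markers averaged above 1 CPM in lung GOF and in lung control, against 3 in liver GOF and 5 in liver control, where Rtkn2 and Cldn18 had no reads in any library, and their sum was 3088 to 6145 CPM in lung GOF and 2712 to 6301 CPM in lung control libraries, against 17.3 to 30.5 CPM in liver GOF and 19.9 to 43.6 CPM in liver control libraries. Ager, a defining marker, averaged 1455 ± 481 CPM in lung GOF and 1352 ± 622 CPM in lung control libraries, against 4.98 ± 0.837 CPM in liver GOF and 6.52 ± 1.47 CPM in liver control libraries (SD, n = 4 each). Within lung, the 4 libraries with the highest type 1 sums (letters D and F of both genotypes) had 659 to 766 CPM of Vegfa and the other 4 had 494 to 643 CPM. Endothelial genes split the lung libraries in the same way. Cdh5 had 3206 to 3351 CPM in those 4 libraries and 2286 to 2334 CPM in the other 4. Pan-endothelial markers summed to 18008 to 19564 CPM and to 13314 to 17096 CPM. Alveolar type 2 markers summed to 2429 to 14183 CPM in lung GOF and 1805 to 16052 CPM in lung control libraries, a wider spread than that of Vegfa, and to 155 to 197 CPM in liver. The part of epithelial RNA in the Vegfa values was not tested.

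**Figure D3:**
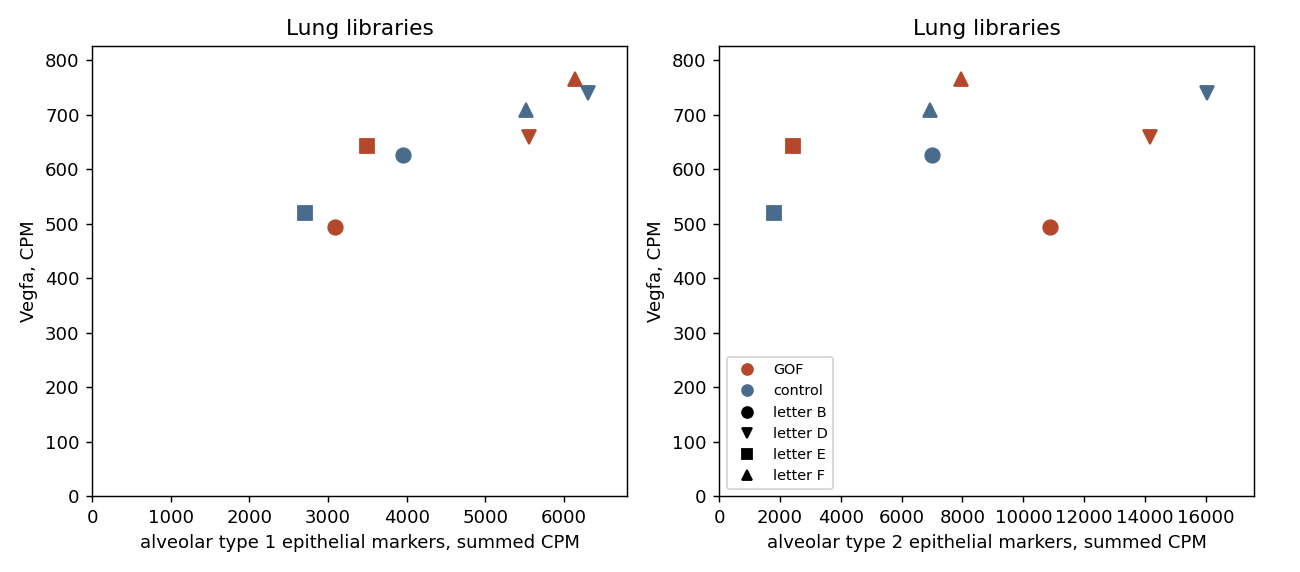
Vegfa (y axis, CPM) against the summed CPM of alveolar type 1 markers (left) and alveolar type 2 markers (right) in the 8 lung libraries, coloured by genotype with shape by letter; all axes are linear from 0. Libraries D and F hold the 4 highest type 1 sums and the 4 highest Vegfa values, while library E of both genotypes has low type 2 sums beside Vegfa of 643 and 521 CPM. Libraries D and F also hold the 4 highest lung values of Cdh5 and Kdr, which are not plotted.

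Flt4 was lower in lung, by -1.67 ± 0.28 in GOF (adjusted p = 0.00144) and -1.33 ± 0.21 in control libraries (adjusted p = 0.000918). All lung libraries had 186 to 281 CPM and all liver libraries 441 to 1119.7 CPM. Of 9 markers of lymphatic endothelium, 2 passed as higher and 1 as lower in lung GOF than in liver GOF, and 2 as higher and 0 as lower in lung control than in liver control. Pdpn, in this list, is also in the alveolar type 1 list. All 8 genes of that list passed as higher in lung control, so Pdpn is 1 of the 2 there. The 9 lymphatic markers summed to 1454 to 2783 CPM in lung GOF and 1817 to 3086 CPM in lung control libraries, against 509 to 1204 CPM in liver GOF and 581 to 1041 CPM in liver control libraries. Most of the lung sum was Lyve1, a hyaluronan receptor (1428 ± 379 CPM in lung GOF and 1665 ± 352 CPM in lung control, against 144 ± 52.7 CPM in liver GOF and 243 ± 77.4 CPM in liver control, SD, n = 4 each). Prox1, the factor that defines lymphatic identity, averaged 38.9 ± 25.0 CPM in lung GOF and 38.3 ± 30.0 CPM in lung control, against 45.1 ± 32.8 CPM in liver GOF and 28.6 ± 13.2 CPM in liver control. The integrin gene Itga9 averaged 164 ± 37.3 CPM in lung GOF and 182 ± 27.5 CPM in lung control, against 322 ± 96.2 CPM in liver GOF and 264 ± 80.2 CPM in liver control. Their part in the Flt4 values was not tested. In bulk RNA, fewer cells of a type and less RNA per cell cannot be told apart, for Flt4 as for the other members. Nrp2, the neuropilin that joins VEGFR3, was lower in lung too, by -1.18 ± 0.27 in GOF (adjusted p = 0.00894) and -0.97 ± 0.23 in control libraries (adjusted p = 0.0102).

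Vegfb was lower in lung, by -0.68 ± 0.29 in GOF (adjusted p = 0.122) and -0.85 ± 0.24 in control libraries (adjusted p = 0.0225). Its call in controls was lost without liver control E (adjusted p = 0.0725) or F (0.0805), or without lung control E (0.0515) or F (0.0551). Pgf was higher in lung, by 2.01 ± 0.57 in GOF (adjusted p = 0.0250) and 1.41 ± 0.48 in control libraries (adjusted p = 0.0557). Lung GOF library B, with 23.2 CPM, carried much of the Pgf difference in GOF: without it the log2 difference was 1.29 and the call was lost (adjusted p = 0.101), and the call was also lost without liver GOF E, F or G (adjusted p of 0.0612 to 0.0713). Fibroblast markers summed to 4631 CPM in lung GOF B and to 1609 to 1976 CPM in the other lung GOF libraries, and their part was not tested.

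Vegfc differed by 0.19 ± 0.24 between lung GOF and liver GOF (95% interval -0.34 to 0.73) and by 0.67 ± 0.26 between lung control and liver control (0.10 to 1.24, adjusted p = 0.0885). Flt1 differed by -0.27 ± 0.18 in GOF (-0.67 to 0.14) and 0.13 ± 0.14 in control libraries (-0.19 to 0.45). Kdr differed by -0.15 ± 0.30 in GOF (-0.82 to 0.51) and 0.16 ± 0.27 in control libraries (-0.43 to 0.75). The intervals of Flt1 and Kdr in both genotypes, and of Vegfc in GOF, span 0 and do not exclude differences as large as their ends. The Vegfc interval in controls lies above 0, and its call rests on the setting: Vegfc passed with DESeq2 (0.70, adjusted p = 0.0390) and with edgeR without liver control F (0.91, adjusted p = 0.0317), and its adjusted p over all alternatives ran from 0.0317 to 0.213. Figf, the gene of VEGF-D, was 3.10 ± 0.45 higher in lung in GOF (adjusted p = 0.000555) and 2.94 ± 0.35 higher in control libraries (adjusted p = 0.000156). It averaged 25.8 ± 18.3 CPM in lung GOF and 21.9 ± 5.96 CPM in lung control libraries, against 3.03 ± 0.808 CPM in liver GOF and 2.82 ± 1.10 CPM in liver control libraries (SD, n = 4 each), with lung GOF B again the highest (53.3 CPM). Nrp1 differed by -0.25 ± 0.22 in GOF and 0.05 ± 0.20 in control libraries, below the threshold in both.

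**Figure D4:**
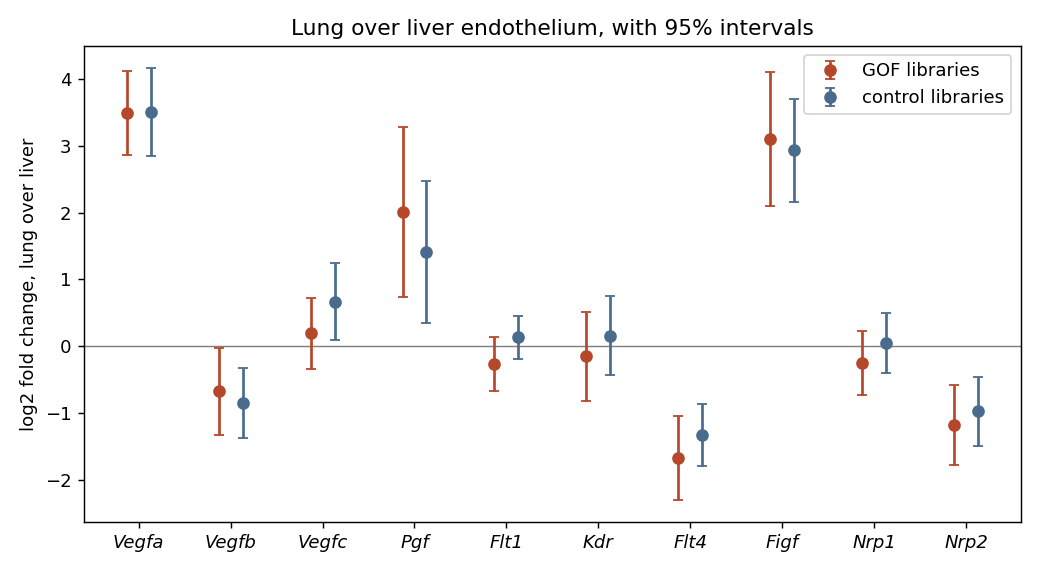
Log2 fold change of lung over liver, with 95% intervals, for the 7 members and for Figf, Nrp1 and Nrp2, in GOF libraries (red, left of each pair) and control libraries (blue), from edgeR without a block and 4 libraries a group. Vegfa and Figf stand at about 3 or above in both genotypes, Flt4 and Nrp2 below 0, and Flt1, Kdr and Nrp1 across 0.

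The wider VEGF pathway was read in 6 lists. They were chosen with earlier results of these data known, so the shares of each list that passed are descriptions and not tests of enrichment. Among 32 VEGF-A response genes of endothelium, 6 passed in liver as higher in GOF in the paired fit and 0 as lower, with a median log2 fold change of 0.19 beside 0.01 over all genes tested. This is 18.8% of the list, where 2.58% of all genes passed in that fit in either direction. In the same fit 0 of 16 hepatocyte markers had a positive log2 fold change (median -0.66, 2 passed as lower), nor did any of 7 mesothelial (-1.21, 2 passed), 10 fibroblast (-0.69, 2 passed) or 6 cholangiocyte markers tested (-1.01, 1 passed), and their part in the response genes was not tested. Plat, tissue plasminogen activator, rose by 1.52 ± 0.11 to 193 ± 50.2 CPM in liver GOF, against 67.5 ± 19.5 CPM in liver control libraries (adjusted p = 0.00016). Cd34, a sialomucin of capillary endothelium, rose by 1.17 ± 0.11 (390.4 ± 116 CPM in liver GOF, 170.5 ± 43.7 CPM in liver control, adjusted p = 0.000238). Apln, the apelin peptide of sprouting endothelium, rose by 1.42 ± 0.15 (36.6 ± 6.90 CPM in liver GOF, 13.5 ± 0.940 CPM in liver control, adjusted p = 0.000687), and it was the 1 gene of the 6 lists that passed without pairing too (1.43 ± 0.17, adjusted p = 0.0270). Vcam1, an adhesion molecule for leukocytes, rose by 0.64 ± 0.078 (adjusted p = 0.00185). In lung 0 of the 32 passed in either fit, with a median of 0.13 unpaired. The genes of this list answer to other signals as well as to VEGF-A.

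Of 20 co-receptors and receptor modulators, 2 passed as higher and 1 as lower in liver GOF in the paired fit, 15% of the list where 2.58% of all genes passed. Dkk2, a secreted Wnt modulator that has also been described as pro-angiogenic, rose by 2.82 ± 0.26 (81.4 ± 34.9 CPM in liver GOF, 13.5 ± 11.5 CPM in liver control, SD, n = 4 each, adjusted p = 0.000238). Vash1, an inhibitor of angiogenesis made by endothelium, rose by 0.48 ± 0.10 (adjusted p = 0.0362), and Gpc1, a heparan sulphate proteoglycan, fell by 1.47 ± 0.28 (adjusted p = 0.0167). Of 33 genes of receptor signal transduction 2 passed, both higher in liver GOF: the calcineurin-dependent factors Nfatc2 (1.89 ± 0.18, adjusted p = 0.000275) and Nfatc1 (0.69 ± 0.097, adjusted p = 0.00368). Lmo2, a cofactor of GATA and TAL1 complexes, was the 1 of 21 transcription factors of the receptor genes that passed (0.40 ± 0.089, adjusted p = 0.0401). These counts, 6.06% of the signal transduction genes and 4.76% of the transcription factors, are within 2 genes of the 2.58% over all genes. Of the 10 genes of the VEGF-C and VEGF-D system and the 8 of oxygen sensing, 0 passed in liver, and in lung 0 genes of any of the 6 lists passed in either fit.

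Between the tissues genes of each pathway list passed in both directions, where 25.4% of all genes passed between lung GOF and liver GOF and 24.9% between lung control and liver control. Of the 20 co-receptors and modulators, 7 were higher and 10 lower in lung GOF than in liver GOF, and 8 were higher and 9 lower in lung control than in liver control, 85% of the list in each genotype. Cav1, the coat protein of caveolae, where VEGFR2 resides, was higher in lung (3.49 ± 0.23 in GOF, 3.27 ± 0.20 in control), and Dab2, an endocytic adaptor of VEGF receptors, was lower (-2.91 ± 0.27 in GOF, -2.95 ± 0.25 in control). Hspg2, perlecan of the basement membrane, was lower in lung as well (-2.30 ± 0.21 in GOF, -2.05 ± 0.19 in control). Of the 32 response genes, 12 were higher and 2 lower in lung GOF, and 14 were higher and 2 lower in lung control (43.8% of the list in GOF and 50% in control), led in controls by Apln (4.11 ± 0.27) and Plaur, the urokinase receptor (3.57 ± 0.34). Epas1, the hypoxia factor HIF-2 alpha, was higher in lung (1.53 ± 0.16 in GOF, 1.70 ± 0.14 in control), and Egln3, an oxygen-sensing prolyl hydroxylase, was lower (-1.71 ± 0.40 in GOF, -2.42 ± 0.27 in control). Among the factors of the receptor genes, Gata2 was higher in lung (1.51 ± 0.25 in GOF, 1.71 ± 0.18 in control) and Nr2f2, the venous factor COUP-TFII, lower (-1.98 ± 0.24 in GOF, -1.93 ± 0.19 in control). Of the other lists, the VEGF-C and VEGF-D system had 2 higher and 2 lower of 10 in each genotype (40%), and the transcription factors 4 higher and 5 lower of 22 in lung GOF (40.9%) and 5 higher and 5 lower in lung control (45.5%). Receptor signal transduction had 5 higher and 3 lower of 33 in lung GOF (24.2%) and 8 higher and 2 lower in lung control (30.3%). Oxygen sensing had 1 higher and 1 lower of 8 in lung GOF (25%) and 2 higher and 1 lower in lung control (37.5%), so that both lists are close to the share over all genes. Each gene named here for the tissue comparison passed edgeR's test with an adjusted p of 0.00949 or less.

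The genes whose profile over the 16 libraries lay closest to each member were ranked by the root mean square difference of centred log2(CPM + 0.5), among genes averaging at least 10 CPM, as a description with no test. For Kdr the nearest was Nrp1 (0.20), its co-receptor, and then Add3 (0.20). For Flt4 they were Sh3bp5 (0.20) and Fyn (0.22), and for Flt1 Ttc28 (0.11) and 2610507B11Rik (0.13). For Vegfa they were Hpgd (0.39) and Mapt (0.39), both higher in lung. Vegfb lay nearest to Ptger1 (0.23) and Pelp1 (0.23), Vegfc to Plekha5 (0.28) and Ldb2 (0.30), and Pgf, the noisiest member, to Ltbp1 (0.52) and Sdcbp2 (0.54).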

How the data were processed

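Paired 100 bp reads came from 2 ng of RNA per library, per the labels' protocols. Alignment and counting used, per the submitters' processing notes, HTSeq 0.6.1, SAMtools 0.1.19, TopHat2 2.0.11 and Bowtie2 2.2.1, with DESeq2 and the build mm9 also named; annotation and strand setting: not given in the sources used here. The deposited values are raw counts of reads per gene, per the file headers. The authors' log2 fold changes and p-values serve only as quoted from the authors' deposited table. The 16 deposited CPM columns and a line of totals were left out.

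Counts of all genes of a comparison were tested with edgeR 4.0.16 (R 4.3.3; TMM, filterByExpr with minimum count 10, quasi-likelihood test) and Benjamini-Hochberg adjusted p under 0.05. All 7 members passed the filter everywhere. Alternatives were DESeq2 1.42.0, other scalings, no filter, a letter block, 1 fit of all 16 libraries and leaving out each library or pair. No duplicated library was found.

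The meaning of the letters is not in the labels. Deviations of same-letter libraries from their group means correlated across genes at 0.217 to 0.365 in lung and 0.263 to 0.468 in liver, so they were read as pairs; between tissues the 6 values were -0.0493 to 0.127, and letters were not used. If letters mark mice shared by both tissues, fits over both treat these as independent. P-values measure only the spread between these libraries. Scripts were tested on simulated data.

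The members and lists were chosen with earlier results of these data known. Named genes are the members, Figf, Nrp1, Nrp2, Pecam1, Cdh5 and Ctnnb1, up to 4 called genes per list with the smallest adjusted p (of which some are given for the tissues), and the 2 nearest profiles per member. Exon lengths (GENCODE M21) and promoters are of GRCm38, not mm9. Overlapping genes could not be told apart in the counts.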

Additional observations from a re-analysis of the deposited data

Results flagged for a closer look

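In lung control, library E had 214 CPM of Vegfc, against 145 to 156 CPM in the other 3 libraries. Its gap to the nearest library was 0.835 of the range of the group, above the 95% critical value of Dixon's test for 4 samples. The check covered 28 groups (7 members in 4 groups), and chance flags about 1 in 20 groups. The lung GOF library of the same letter was the highest of its group too (156 CPM).

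For Vegfc, all 4 lung GOF libraries were below their same-letter control and all 4 liver GOF libraries above theirs. The effect in lung minus that in liver was -0.48 on the log2 scale. The interaction test of edgeR gave an adjusted p of 0.998 unpaired and 0.173 in pairs, over all genes, so the difference between the tissues did not pass the threshold.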

How the results depend on the processing

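Under 27 other settings 680 values were recomputed, which are fold changes of members and counts of members passing. Of the fold changes, 539 kept their direction and their side of the threshold. Another 43 changed sign, 9 lost a call and 4 gained one. The count of members passing stayed at 0 in the genotype comparisons and their difference under each setting. Between lung GOF and liver GOF it was 2 in place of 3 without liver GOF E, F or G or lung GOF B, and 3 otherwise. Between lung control and liver control it was 5 in place of 3 with DESeq2, by the addition of Vegfc and Pgf, and 2 without liver control E or lung control E. The paired fits (replicate block by letter) changed no genotype call of a member, and every library correlated best with its own letter in both tissues. Between the tissues, where pairing by letter is not known, the edgeR fit with the block left 2 of 7 members called in controls, with Vegfb at -1.04 (adjusted p = 0.0802). Scaling by library totals alone moved the median of all genes between lung control and liver control to -0.155, against -0.036 with TMM, and turned the log2 fold change of Vegfa in lung to 0.0298 and its lung-minus-liver difference to 0.0202; no call changed.

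Fold changes near 0 changed sign when single libraries or pairs were left out, and none of them passed the threshold. The ranges that follow are over all alternative settings. In liver GOF over control they ran from -0.23 to 0.24 for Vegfa and -0.19 to 0.12 for Vegfb. For Vegfc they ran from -0.0382 to 0.36 and for Flt4 from -0.0671 to 0.45. In lung they ran from -0.12 to 0.0945 for Vegfa, -0.15 to 0.42 for Vegfb, -0.89 to 0.17 for Pgf and -0.33 to 0.11 for Kdr. The lung-minus-liver effect ran from -0.25 to 0.22 for Vegfa and -0.14 to 0.9996 for Pgf. Lung over liver ran from -0.0207 to 0.44 for Kdr in controls, and in GOF from -0.40 to 0.0182 for Kdr and -0.00344 to 0.38 for Vegfc. In controls, Vegfc passed without liver control F (0.91) and Pgf without lung control F (1.61). With 4 libraries a group, paired intervals of Pgf in liver (-2.12 to 0.50) leave room for large changes.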
